A study of Mus musculus with 11 samples.

Results

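Amino acids filtered at the glomerulus are taken back by the proximal tubule in a transcellular route. Carriers of the apical brush border bring them into the cell, and carriers of the basolateral membrane pass them to the blood. Several of these transporters are heteromers, in which a type II glycoprotein, the heavy chain, is disulphide-linked to a multispanning light chain that forms the transport path. Inherited loss of the human counterparts causes cystinuria (SLC3A1, SLC7A9), lysinuric protein intolerance (SLC7A7), Hartnup disorder (SLC6A19) and dicarboxylic aminoaciduria (SLC1A1). The genes described here are a list of 9 renal amino acid transporters: Slc3a1, Slc3a2, Slc7a9, Slc7a7, Slc7a8, Slc6a19, Slc6a18, Slc6a13 and Slc1a1. They were chosen by name, with earlier results of these data known, so the shares called among them are a description. All 9 had a probe set on the array, out of 18193 genes named on it, and their 13 probe sets stand among 45037 tested.

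Expression was measured in wild-type CD-1 mice, an outbred stock, at E15.5 (Theiler stage 23), with the sex of the fetuses unknown. Laser capture microdissection of frozen fetal kidney sections gave 3 pools of early proximal tubule, 2 of cortical collecting duct, 3 of urothelium (the epithelium lining the ureter) and 3 of ureteral smooth muscle. Each of the 11 one-colour arrays held 1 pool of approximately 50 sections from 5 kidneys, amplified in 2 rounds, and the labels do not say whether pools share fetuses. So the p-values here speak only of how far such pools scatter, and part of that scatter may be technical. The series set out to profile separate parts of the kidney during development, and each compartment was compared with the mean of the other 3 and with each of them.

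All levels are log2(signal + 55), where the signal is the authors' linear probe set intensity. Levels of different probe sets are not on 1 scale, so each gene was compared with itself across compartments. A difference was called at a limma adjusted p under 0.05 and a log2 fold change of at least 1 in size. Median signals per array ran from 247 to 401, at the same trimmed mean of 1500. Within a compartment, arrays correlated at 0.893 to 0.923 across probe sets, which are not independent replicates. The 3' to 5' signal ratio of Gapdh, a sign of RNA quality, was 10.5 to 18.2 in proximal tubule and 6.79 to 55.3 in the other arrays, with the highest in urothelium replicate 2. The same ratio of actin ranked the arrays differently. It was 7.35 to 13.5 in proximal tubule, highest in replicate 2, and 5.07 to 13.4 in the other arrays. Urothelium replicate 2 had an actin ratio of 5.43. Each marker list had its highest summed signal in the compartment it is named for, with exceptions among single markers. The summed signal of 11 proximal tubule markers was 109000 to 168000 in the 3 proximal tubule arrays and 2580 to 10400 in the other 8, and 10 of the 11 markers were called higher in proximal tubule. The most clearly separated of them were Cubn (5.05 ± 0.41), Slc13a1 (5.99 ± 0.50), Slc34a1 (4.86 ± 0.49) and Slc5a2 (3.89 ± 0.40), as log2 fold changes with SE. The summed signal of 8 smooth muscle markers was 224000 to 286000 in smooth muscle, 10600 to 63700 in urothelium and 2850 to 6340 in the rest. For 8 urothelium markers it was 37500 to 106000 in urothelium and 995 to 13800 elsewhere, although Krt5 and Upk1a stood close to their levels in the other compartments. For 9 collecting duct markers it was 70100 to 92700 in collecting duct, 26900 to 40400 in urothelium and 2540 to 16700 in the other 2 compartments, with the defining water channel Aqp2 at only 10.12 in collecting duct. Tfcp2l1, one of these 9, was called higher in proximal tubule (1.86 ± 0.46, limma adjusted p = 0.0331), at 12.81 there and 13.90 in collecting duct. Summed markers of podocytes, loop of Henle and distal tubule, nephron progenitors, endothelium and red cells overlapped between proximal tubule and each other compartment. Those of leukocytes overlapped with collecting duct and urothelium, but were 1260 to 6310 in proximal tubule and 624 to 1160 in smooth muscle.

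Of the 9 transporters, 7 were higher in early proximal tubule than in the mean of the other compartments and none was lower (limma, adjusted over all probe sets). The median log2 fold change of the 9 was 4.13, beside 0.03 over all probe sets. Each of the 9 was read from its brightest probe set, a choice that proximal tubule signal can sway, so the 2 medians are not like for like. The value 4.13 is that of Slc1a1, for which another probe set gave 3.03. Of all probe sets tested, 3.54% were called higher and 5.64% either way in this comparison. The 7 were Slc3a1, Slc7a9, Slc7a7, Slc6a19, Slc6a18, Slc6a13 and Slc1a1, and for each of them the 3 proximal tubule arrays lay above all 8 others, which 4.84% of probe sets did. Slc3a2 and Slc7a8, a heavy chain and a light chain with wide tissue distribution, were not called. In bulk captures, fewer cells that express a gene and less RNA per cell cannot be told apart.

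**Figure D1:**
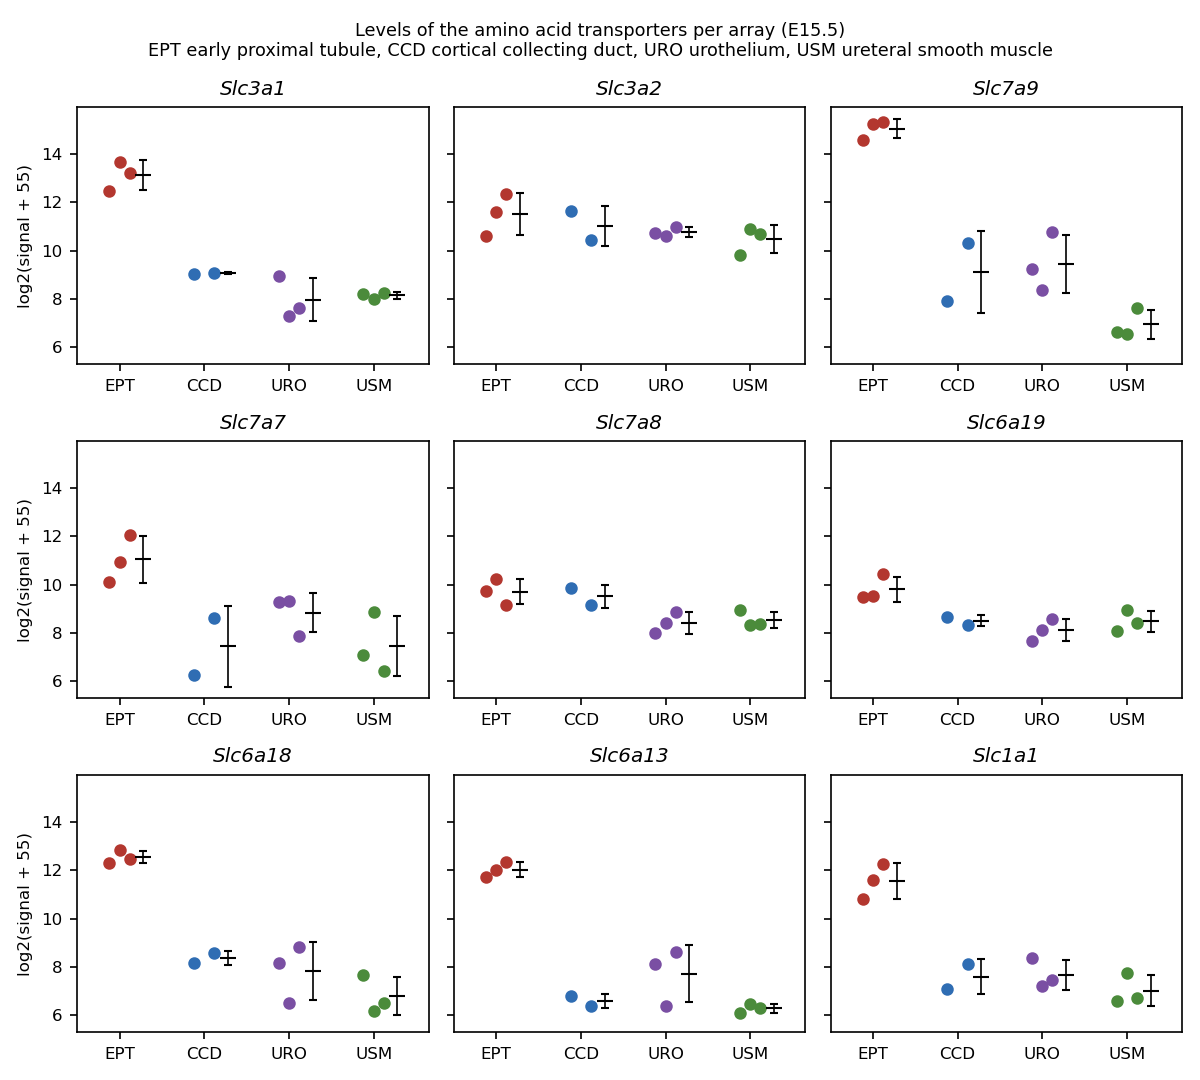
Level of each transporter in each array, read from the probe set with the highest mean (points, log2(signal + 55)), with the compartment mean and SD as a bar beside the points. In 7 panels the 3 early proximal tubule arrays sit above all 8 others, and in those of Slc3a2 and Slc7a8 they overlap with arrays of other compartments, in the case of Slc7a8 with collecting duct.

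Slc3a1 encodes rBAT, the apical heavy chain of the cystine and dibasic amino acid exchanger. Its levels were 12.48, 13.68 and 13.22 in proximal tubule replicates 1 to 3 and 9.03 and 9.08 in collecting duct. They were 8.96, 7.27 and 7.62 in urothelium and 8.20, 7.97 and 8.24 in smooth muscle. The lowest proximal tubule array was thus more than 3 log2 units above the highest of the other 8. Proximal tubule exceeded the mean of the others by 4.74 ± 0.40 log2 units (SE, 3 arrays against 8), or 26.8-fold, with a limma adjusted p of 3.68e-05.

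Slc3a2 encodes 4F2hc (CD98), the basolateral heavy chain that also serves amino acid uptake in most dividing cells. Its levels were 10.62, 11.60 and 12.34 in proximal tubule, 11.62 and 10.43 in collecting duct, 10.74, 10.59 and 10.97 in urothelium and 9.81, 10.89 and 10.70 in smooth muscle. Every array stood above its own median for this gene, and the compartments overlapped throughout. The difference in proximal tubule was 0.77 ± 0.43 with a 95% interval of -0.15 to 1.69 (limma adjusted p = 0.375). The Slc3a1 minus Slc3a2 difference within an array was 0.88 to 2.08 in the 3 proximal tubule arrays and -3.34 to -1.34 in the other 8. This shift of 4.02 is a description, since the pair was chosen after the levels had been seen.

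Among the light chains, Slc7a9 had the largest difference of the 9 genes. It encodes b0,+AT, the partner of rBAT, which takes up cystine and dibasic amino acids at the brush border. Levels were 14.58, 15.24 and 15.35 in proximal tubule, 7.89 and 10.32 in collecting duct, 9.23, 8.35 and 10.75 in urothelium and 6.63, 6.55 and 7.62 in smooth muscle. Slc7a9 was higher in proximal tubule by 6.56 ± 0.57, or 94.6-fold (limma adjusted p = 4.45e-05). Its smooth muscle signals were 44.36, 38.74 and 141.96, so the size of the fold change depends in part on the 55 added to each signal. Over the alternative settings and with each array left out in turn, the log2 difference ran from 5.97 to 6.97. The other 3 compartments were spread more widely for this gene than for Slc3a1, with SDs of 1.72 in collecting duct (n = 2) and 1.22 in urothelium (n = 3).

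Slc7a7 encodes y+LAT1, the basolateral partner of 4F2hc that releases dibasic amino acids. Its leading probe set was at 10.11, 10.92 and 12.07 in proximal tubule, 6.25 and 8.62 in collecting duct, 9.26, 9.31 and 7.88 in urothelium and 7.09, 8.85 and 6.41 in smooth muscle. The proximal tubule arrays were above all others, but the lowest of them was within 1 log2 unit of 2 urothelium arrays. The difference was 3.14 ± 0.64 (limma adjusted p = 0.0113). It was not called without proximal tubule replicate 2 (adjusted p = 0.0549) or replicate 3 (adjusted p = 0.0859). With label batch as a block it fell to 1.03 (adjusted p = 0.652), and there its difference from urothelium alone turned to -1.2 (adjusted p = 0.832). A second probe set of Slc7a7 stayed below the array median in all 11 arrays and differed by 0.63 ± 0.35 (adjusted p = 0.372).

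Slc7a8 encodes LAT2, the basolateral exchanger of neutral amino acids. Its levels were 9.72, 10.22 and 9.17 in proximal tubule and 9.86 and 9.17 in collecting duct. In urothelium they were 7.97, 8.39 and 8.87, and in smooth muscle 8.93, 8.33 and 8.38. Proximal tubule and collecting duct overlapped, and both lay above the arrays of the 2 ureter compartments. The difference of proximal tubule from collecting duct was 0.19 with a 95% interval of -0.85 to 1.22, and its differences from smooth muscle and urothelium were 1.16 and 1.29 (limma adjusted p = 0.129 and 0.123). No comparison of Slc7a8 was called. Within an array, Slc7a9 minus Slc7a8 was 4.86 to 6.18 in proximal tubule and -2.29 to 1.88 elsewhere, and Slc7a9 minus Slc7a7 was 3.27 to 4.47 and -2.3 to 2.87. Both pairs were chosen after the levels had been seen, and these ranges are descriptions.

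**Figure D2:**
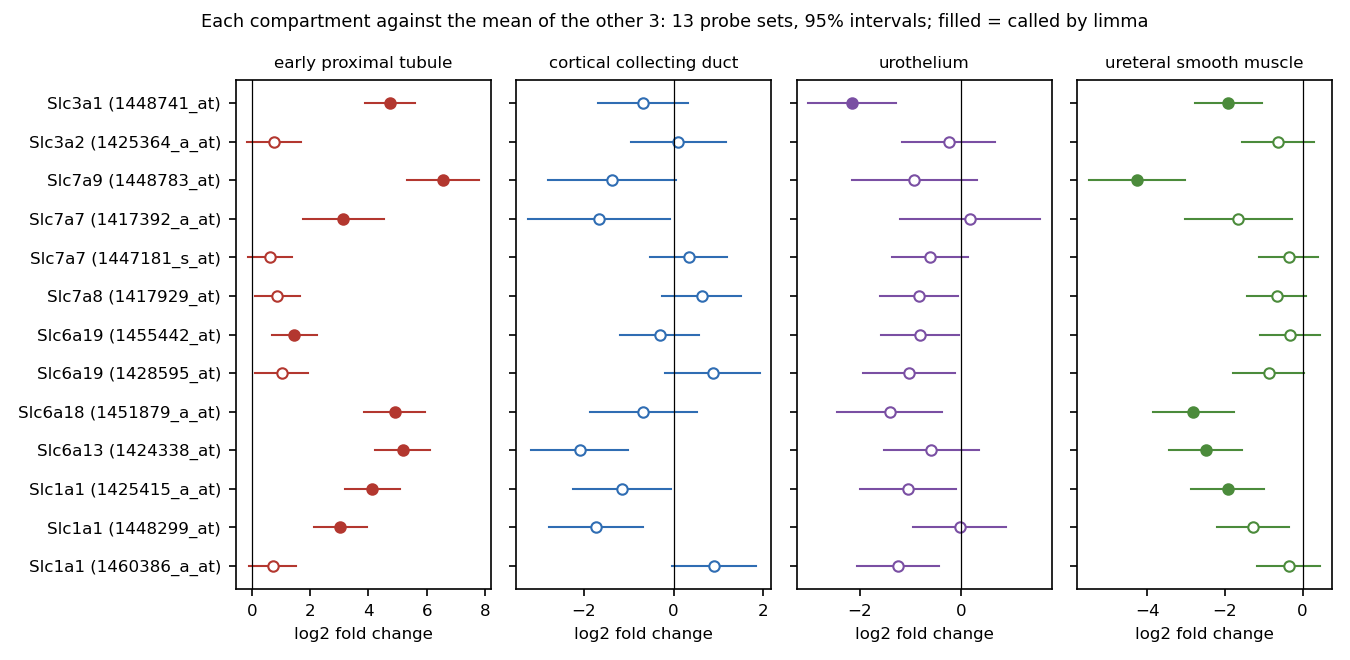
Log2 fold change of each of the 13 probe sets in each compartment against the mean of the other 3, with 95% intervals (points and lines; filled points were called by limma). Early proximal tubule has 8 filled points, all to the right of 0, while smooth muscle has 5 to the left and urothelium 1.

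The carriers of the Slc6 family are driven by sodium. Slc6a19 (B0AT1) is the main apical carrier of neutral amino acids in the mature proximal tubule, and Slc6a18 (B0AT3, or XT2) is a relative in the same membrane that carries glycine and other neutral amino acids in mice. In the RefSeq annotation the 2 genes lie next to each other on chromosome 13, with 0 annotated genes between them. Slc6a18 was at 12.32, 12.83 and 12.49 in proximal tubule, 8.15 and 8.58 in collecting duct, 8.16, 6.49 and 8.80 in urothelium and 7.65, 6.15 and 6.50 in smooth muscle. Its difference was 4.90 ± 0.48 (limma adjusted p = 9.13e-05), and the 3 proximal tubule arrays had an SD of 0.26.

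Slc6a19 differed less. Its leading probe set read 9.50, 9.52 and 10.42 in proximal tubule, 8.66 and 8.33 in collecting duct, 7.67, 8.12 and 8.56 in urothelium and 8.08, 8.95 and 8.40 in smooth muscle. The proximal tubule arrays lay above all others, although smooth muscle replicate 2 came close to the lowest of them, and the other compartments overlapped one another. The log2 fold change was 1.45 ± 0.35 (limma adjusted p = 0.0303). This call was lost when single arrays were left out (collecting duct replicate 2, any proximal tubule array or smooth muscle replicate 3, adjusted p from 0.0507 to 0.162), with the pseudocount of 12 (1.59, adjusted p = 0.0597), and with label batch as a block (1.02, adjusted p = 0.564). The other probe set of Slc6a19 lay below the array median on all 11 arrays, with a difference of 1.02 ± 0.42 (adjusted p = 0.206). Whether the 2 neighbouring genes differ in response was not tested.

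Slc6a13 (GAT2) is a basolateral carrier of GABA and taurine. It was at 11.73, 12.02 and 12.34 in proximal tubule, 6.80 and 6.37 in collecting duct, 8.13, 6.37 and 8.63 in urothelium and 6.10, 6.47 and 6.28 in smooth muscle. All proximal tubule arrays were more than 3 log2 units above the others, and 2 of the 3 urothelium arrays stood above the collecting duct and smooth muscle arrays. The difference was 5.17 ± 0.44, or 36-fold (limma adjusted p = 3.66e-05). The signals behind these levels were 13.63 to 56.06 in collecting duct, smooth muscle and urothelium replicate 2. That is about or below the 55 added to each signal, so the size of the fold change depends on this offset. Over the alternative settings and with each array left out in turn, the log2 difference ran from 4.04 to 6.01.

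Slc1a1 (EAAC1, EAAT3) is the apical carrier of glutamate, aspartate and cysteine, and it had 3 probe sets. The leading one was at 10.79, 11.60 and 12.27 in proximal tubule, 7.07 and 8.12 in collecting duct, 8.38, 7.19 and 7.43 in urothelium and 6.57, 7.74 and 6.72 in smooth muscle. It was higher in proximal tubule by 4.13 ± 0.44 (limma adjusted p = 0.000162). A second probe set gave 3.03 ± 0.42 (adjusted p = 0.00097), with proximal tubule at 10.54, 10.67 and 10.44 and the others at 6.18 to 8.80. The third lay below the array median on all 11 arrays and gave 0.71 ± 0.38 (adjusted p = 0.349). With label batch as a block the leading probe set gave 2.94 (adjusted p = 0.0585).

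A string resembling a date, found in titles or source names and not explained there, sorts the arrays into 4 label batches, and proximal tubule shares none with urothelium. With these batches as a fixed block, 4 of the 9 genes were called higher in proximal tubule, against 0.366% of all probe sets. They were Slc3a1 (4.55), Slc7a9 (6.19), Slc6a18 (5.18) and Slc6a13 (4.96), with limma adjusted p from 0.0215 to 0.0273. In batch 3, which held 2 proximal tubule arrays and 1 collecting duct array, proximal tubule was higher by 4.97 for Slc7a9, 5.81 for Slc6a13, 4.37 for Slc3a1, 4.08 for Slc6a18 and 3.81 for Slc1a1. In batch 4, with 1 array each, the same differences were 6.70, 4.93, 3.44, 4.17 and 3.72. Against the smooth muscle array of batch 4 they were 8.03, 5.26, 4.51, 6.17 and 3.05. Slc7a7 was higher by 2.87 and 3.86 than collecting duct and by 1.27 than smooth muscle, and Slc6a19 by 1.64, 0.84 and 0.55. Slc3a2 went from 1.55 in batch 3 to -1 in batch 4, where it was also -0.27 against smooth muscle.

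Pair by pair, 5 of the 9 genes were called higher in proximal tubule than in collecting duct (background 0.988% of probe sets), 6 than in smooth muscle (5.03%) and 6 than in urothelium (2.52%). Slc3a1, Slc7a9, Slc6a18, Slc6a13 and Slc1a1 were called in all 3 pairs. Slc7a7 was called against smooth muscle (3.59 ± 0.77, limma adjusted p = 0.0109) but not against collecting duct (3.6 ± 0.86, adjusted p = 0.0612) or urothelium (2.22 ± 0.77, adjusted p = 0.139). Slc6a19 was called against urothelium alone (1.70 ± 0.43, adjusted p = 0.0434). With the label batch block 0 genes were called against urothelium, with which proximal tubule shares no batch. In that block fit Slc3a1 was 4.90 higher (adjusted p = 0.175) and Slc7a9 5.33 higher (adjusted p = 0.3). Without collecting duct replicate 1, the count against collecting duct was 3.

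Below proximal tubule, the order of the other compartments was not resolved. No gene was called between collecting duct and smooth muscle, urothelium and collecting duct, or urothelium and smooth muscle (limma), where 2, 1 and 2 of the 9 had an unadjusted p under 0.05. Backgrounds there were 2.62%, 0.0555% and 2.58% called either way. For Slc3a1 the means ran from 9.06 in collecting duct to 8.14 in smooth muscle and 7.95 in urothelium. For Slc7a9 the order was 9.44 in urothelium, 9.11 in collecting duct and 6.94 in smooth muscle. The widest gap between neighbours was that of collecting duct over smooth muscle for Slc7a9, 2.17 with an interval of 0.51 to 3.83 (limma adjusted p = 0.21). Urothelium over smooth muscle, which are not neighbours in that order, was 2.51 with an interval of 1.02 to 3.99 (limma adjusted p = 0.0847). In that pair 1 gene was called in 3 of 9 alternative settings.

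Against the mean of the other 3, 5 of the 9 genes were lower in smooth muscle and none higher, where 3.24% of probe sets were called lower. They were Slc7a9 (-4.27 ± 0.57), Slc6a18 (-2.81 ± 0.48), Slc6a13 (-2.49 ± 0.44), Slc1a1 (-1.93 ± 0.44) and Slc3a1 (-1.91 ± 0.40), with limma adjusted p from 0.000682 to 0.0203. For Slc7a9 the 3 smooth muscle arrays lay below all others, as they did for 2.72% of probe sets. Slc3a1 was lower in urothelium (-2.16 ± 0.40, limma adjusted p = 0.0318, background 0.18%), and this call was lost in 9 of 11 fits that left out 1 array, that is, without any array but proximal tubule replicate 1 or urothelium replicate 1 (adjusted p up to 0.203). In collecting duct 0 of the 9 were called, with 3 at an unadjusted p under 0.05 and 0.366% of probe sets called either way. Since proximal tubule is part of each of these means, the comparisons share its arrays and are not separate evidence. With the label batch block 2 genes were called lower in smooth muscle and 0 in urothelium. Without smooth muscle replicate 1 or 3 the count in smooth muscle was 3, with Slc3a1 and Slc1a1 not called (limma adjusted p from 0.0513 to 0.115). Slc3a1 was not called without smooth muscle replicate 2 either (-1.82, limma adjusted p = 0.0618), so its call there needed all 3 smooth muscle arrays.

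Outside proximal tubule, proximal tubule markers differed between arrays, and some of these genes moved with them. The 11 markers summed to 10400, 2930 and 6890 in urothelium replicates 1 to 3, with 7, 3 and 7 of 11 above the array median. They summed to 2720 and 8550 in collecting duct replicates 1 and 2 (2 and 8 of 11), and to 2580, 3480 and 4210 in smooth muscle (1, 1 and 5 of 11). Slc7a9 was at 10.75 and 9.23 in urothelium replicates 3 and 1 and at 8.35 in replicate 2, and at 10.32 and 7.89 in collecting duct replicates 2 and 1. Slc6a13 and Slc6a18 were likewise higher in urothelium replicates 1 and 3 than in replicate 2. Other values went the opposite way or stayed level. Slc6a13 was at 6.37 in collecting duct replicate 2 and 6.80 in replicate 1, and Slc7a7 was at 9.31 in urothelium replicate 2 and 7.88 in replicate 3. Slc3a1 was at 9.08 and 9.03 in collecting duct replicates 2 and 1. The part of these markers in the levels outside proximal tubule was not tested. Aqp1, one of the 11, was at 10.81 ± 0.21 (SD, n = 3) in smooth muscle, close to its 10.97 in proximal tubule.

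**Figure D3:**
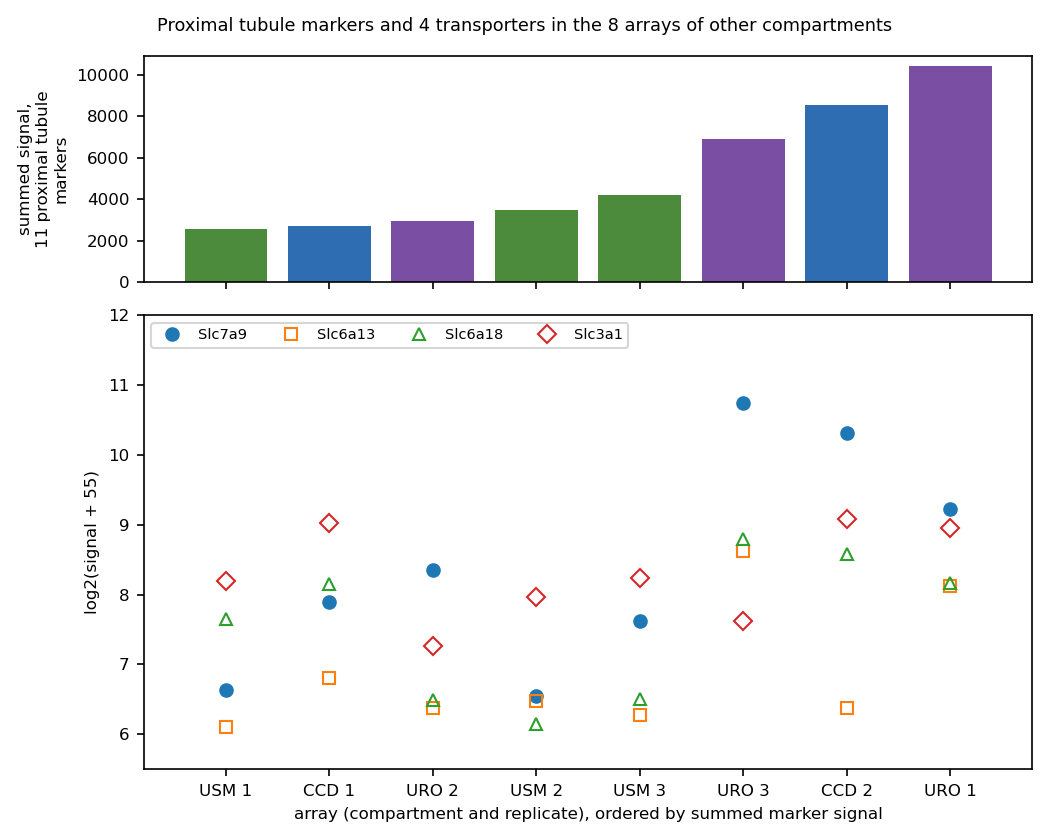
Summed linear signal of 11 proximal tubule markers (bars) and levels of 4 transporters (points, log2(signal + 55)) in the 8 arrays of the other compartments, ordered by the marker sum. Slc7a9 is at 9.23 to 10.75 in the 3 arrays with the highest sums (6890 to 10400) and at 6.55 to 8.35 in the other 5. Slc6a18 is at 8.16 to 8.80 and 6.15 to 8.15. The 2 sets of arrays overlap for Slc3a1 (7.62 to 9.08 and 7.27 to 9.03) and Slc6a13 (6.37 to 8.63 and 6.10 to 6.80).

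The remaining genes of amino acid transport moved unevenly. Of 6 other Slc7 light chains 2 were higher in proximal tubule, Slc7a13 (4.04 ± 0.67), which encodes AGT1, a second partner of rBAT, and Slc7a12 (2.83 ± 0.52), and 4 were not called. Of 9 further Slc6 carriers measured, 3 were higher: Slc6a20b (4.65 ± 0.49), Slc6a20a (3.90 ± 0.37), which encode proline and imino acid carriers, and Slc6a15 (3.90 ± 0.46), a carrier of branched-chain amino acids and proline. None of the 5 other Slc1 carriers was called by limma, and their list median was -0.05. Of 4 cationic amino acid carriers, Slc7a1 (CAT1) was lower (-2.07 ± 0.35), the others not called. Among 17 Slc36, Slc38, Slc43 and Slc16a10 carriers 3 were higher, Slc38a10 (1.56 ± 0.34), Slc38a6 (1.62 ± 0.37) and the glutamine carrier Slc38a3 (1.87 ± 0.45), and Slc38a4, a system A carrier, was lower (-2.46 ± 0.34). The peptide carrier Slc15a2 (PEPT2) was higher by 3.99 ± 0.49, and the other 3 Slc15 genes were not called. Adjusted p over these called genes ran from 6.47e-05 to 0.0286 (limma).

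Of 4 partner and scaffold genes measured 3 were higher: Pdzk1 (4.68 ± 0.46) and Slc9a3r1 (3.19 ± 0.33), PDZ scaffolds of the brush border, and Cltrn (collectrin, 3.71 ± 0.70), which is needed for apical Slc6 carriers at the membrane. Of 10 genes on the brush border peptidase list, 7 were higher, among them Mep1b (6.53 ± 0.74), Mep1a (5.39 ± 0.50), Dpep1 (3.67 ± 0.56) and Anpep (2.44 ± 0.36). The list also holds the aminoacylases Acy1 (2.00 ± 0.35, called) and Acy3 (1.37 ± 0.39, not called), which are not brush border peptidases. Among 20 enzymes of amino acid metabolism 10 were higher, including Agxt2 (5.76 ± 0.62), Kynu (4.70 ± 0.59), Dao (4.17 ± 0.38) and Dmgdh (4.08 ± 0.38). Psat1, an enzyme of serine synthesis, was lower (-2.53 ± 0.38), whereas Phgdh, the first enzyme of that pathway, was among those higher (2.15 ± 0.39). The other 9 enzymes were not called, nor were the other 3 genes of the peptidase list and 1 partner gene. The list medians, also read from the brightest probe set of each gene, were 3.45, 2.88 and 1.46, beside 0.03 over all probe sets. Among 5 transcription factors of the tubule measured 2 were not called and 3 were higher, Hnf4a (5.39 ± 0.74), Hnf4g (2.69 ± 0.54) and Pax8 (2.09 ± 0.35).

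**Figure D4:**
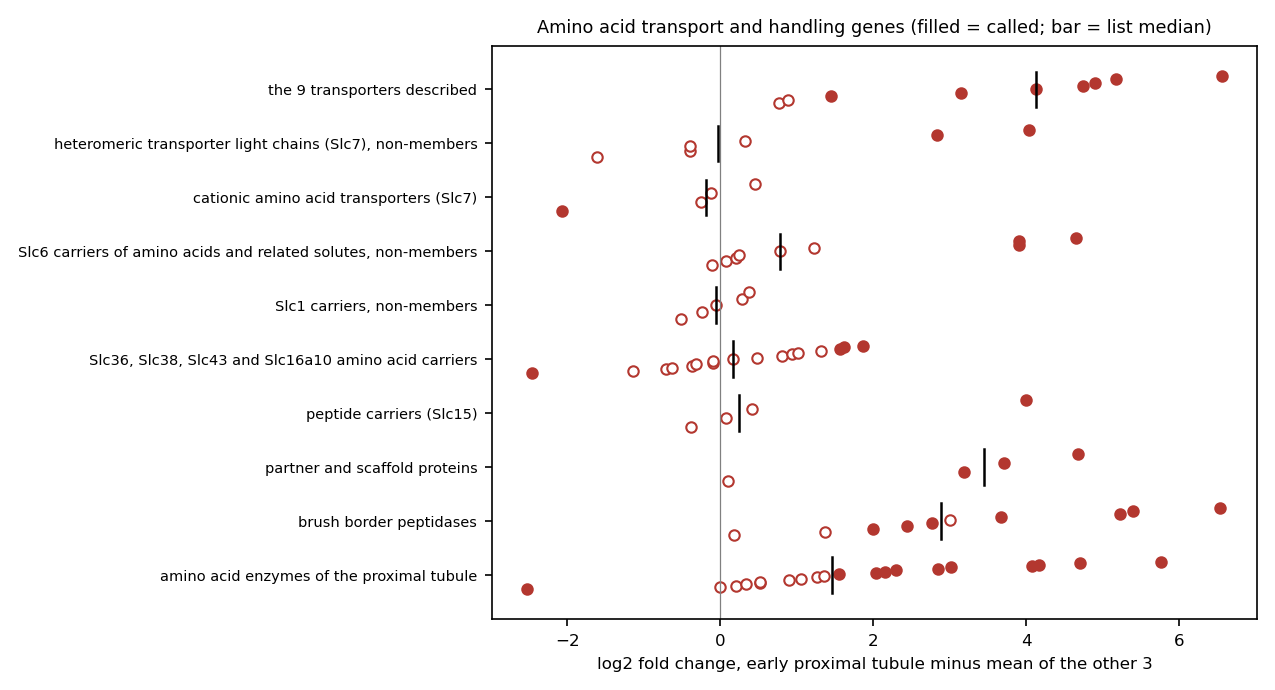
Log2 fold change of early proximal tubule against the mean of the other 3 for the 9 transporters and for lists of related genes (points; filled when called by limma; bars mark list medians). The 9 have a median of 4.13, the brush border peptidase list 2.88 and the other Slc1 carriers -0.05.

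Genes nearest in pattern were found from centred profiles over the 11 arrays by the root mean square of the log2 differences. The 13565 other genes compared were those whose leading probe set lay above the array median in at least 2 arrays. A gene high in proximal tubule alone can pass that filter. For Slc7a9 the nearest were Tmem174 (0.68), the meprin gene Mep1b (0.70) and the glucose carrier Slc2a2 (0.75). The median over the genes compared was 3.25. Slc3a1 was nearest to Nat8f1 (0.47), Mettl7b (0.49) and Acsm1 (0.50), with a median of 2.31. The profile of Slc6a18 lay closest to Clec18a (0.40), Atp13a4 (0.41) and the organic anion carrier Slc22a19 (0.44). Slc6a13 had Susd3 (0.44), the succinate receptor Sucnr1 (0.53) and 0610005C13Rik (0.62), and Slc1a1 had Pbld2 (0.45), Tmem150a (0.51) and Eaf2 (0.51). Medians for these 3 genes were 2.44, 2.46 and 2.02.

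Slc7a7 was nearest to Bbof1 (0.64), Dna2 (0.76) and Miox (0.78, an enzyme of inositol breakdown in proximal tubule), with a median of 1.85. Slc3a2 was nearest to Irf8 (0.26), Disp1 (0.29) and Taf8 (0.30), Slc7a8 to Zkscan1 (0.32), Trmt2b (0.33) and Tbc1d14 (0.33), and Slc6a19 to Pank4 (0.27), Rhbdl1 (0.29) and Cnppd1 (0.30). Medians for these 3 genes were 0.91, 0.95 and 0.98.

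The start sites of these genes were searched for letters that hepatocyte nuclear factors, of which Hnf4a is one, are known to favour, since 7 of the genes were higher in the same compartment. RefSeq windows of the GRCm38.p6 build (250 bases before to 50 after a start site) were at hand for 8 of the 9 genes, Slc6a18 being the other. The motifs were picked with these windows in view, so their counts support nothing. The HNF4 letters CAAAGTCCA, on either strand, were in the window of Slc3a1 and in 0.475% of 32851 windows, or 0.555% of 27025 genes. The 150 bases before the Slc3a1 start, chr17:85028197-85028346 on the + strand, are shown with that match in capitals:

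Slc3a1: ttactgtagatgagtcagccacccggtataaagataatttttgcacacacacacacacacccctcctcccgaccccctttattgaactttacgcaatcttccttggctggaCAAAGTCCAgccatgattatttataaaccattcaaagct

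The match ends 31 bases before the start site. The HNF1 core, a near-palindrome of 10 bases with any base allowed at 1 position, was in windows of Slc7a9 and Slc7a8. It was in 0.411% of all windows and 0.466% of genes. The shorter HNF1 site GTTAAT was in windows of Slc3a1, Slc7a7 and Slc6a13, in 7.1% of windows and in 8.24% of genes. Slc7a7 had 5 windows and Slc6a13 had 3, which gives a gene more places to match. The full HNF1 palindrome of 13 bases, which contains the core and the shorter letters, and the nuclear receptor direct repeat with 1 base between its copies matched 0 of the 8 genes. They matched 0.00913% and 0.0152% of windows, or 0.0111% and 0.0185% of genes. Stretches of 30 bases around the HNF1 matches are printed to show their setting, read along the gene's strand with the match in capitals. They lie at chr7:35449002-35449031 (+), chr14:54782030-54782059 (-), chr14:54409541-54409570 (-), chr6:121300660-121300689 (+) and chr17:85028336-85028365 (+), in the order below:

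Slc7a9: aggtgggtgtTTAATAATTAcctctgttga
Slc7a8: tagggggtacTAATAATTAAatagaagaag
Slc7a7: agctgaccatttGTTAATggctattcccga
Slc6a13: gctgcgttactcATTAACctcaggggtcag
Slc3a1: cattcaaagctcATTAACaaagcacagcgc

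The core match was shared by Slc7a9, which had the largest difference in proximal tubule, and Slc7a8, which was not called. Slc6a19, Slc1a1 and Slc3a2 had none of these letters in their windows. A match is a description of the sequence, and binding was not measured here.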

How the data were processed

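Pools of microdissected tissue were hybridised to Affymetrix arrays with 45101 probe sets. The deposited values are linear intensity signals made by the authors with GCOS in a version that is not given, according to the submitters' processing notes. The 64 control probe sets were left out, log2(signal + 55) was taken, and the authors' scaling was kept. No filter on low values was set in the reported fit. For genes with more than 1 probe set, the brightest on average over the arrays is called leading and stands for the gene. Symbols came from the platform annotation, and 34958 probe sets had 1 symbol.

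All 4 compartments were fitted together with limma 3.58.1 in R 4.3.3 over all 45037 probe sets and 11 arrays, 1 mean a compartment, with 7 residual and 5.82 prior degrees of freedom. P-values were adjusted by Benjamini-Hochberg within each comparison. The number of arrays limits the precision. Replicates were numbered in accession order. A filter (above the array median in at least 2 arrays) would have kept 10 of the 13 probe sets. It was set for the genes compared in pattern. Named genes were the 9 members, up to 4 called genes with the largest moderated t and up to 2 in the other direction per list, and the 3 nearest patterns per member. Markers of the other compartments are described as sums. Phgdh, Acy1, Acy3, Tfcp2l1, Aqp1, Aqp2, Krt5 and Upk1a were named after their values were seen. The members, lists and tests were chosen with earlier results of these data known. The lists used were other Slc7, cationic, Slc6, Slc1, Slc36, Slc38, Slc43 and Slc15 carriers, partner proteins, peptidases, enzymes, transcription factors and compartment markers. The settings tried besides were pseudocounts of 12 and 190, quantile normalization, the filter, 1 probe set or the mean per gene, trend and robust options, label batch as fixed or random block, and each array left out. Differences between genes within an array were set side by side after seeing the data. An exact permutation test was run on the 3 pairs, but its p-values are not used, since the same data picked the pairs.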

Additional observations from a re-analysis of the deposited data

How the results depend on the processing

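Over the single-gene values (the 9 genes in each compartment against the other 3), 686 kept their side of the threshold under an alternative, 31 lost a call, 3 gained one, and 0 values called in either fit changed sign. Most of the 686 were not called in either fit, so they say little about how firm the calls are. The reported fit called 7 genes in proximal tubule, 5 in smooth muscle, 1 in urothelium and 0 in collecting duct. With label batch as a fixed block (4 residual degrees of freedom) 4 genes were called in proximal tubule, 2 in smooth muscle, 0 in urothelium and 0 for proximal tubule against urothelium. Calls over all probe sets with that block were 230 (of 2541) in proximal tubule, 930 (of 2533) in smooth muscle, 0 (of 165) in collecting duct and 0 (of 273) in urothelium. With the pseudocount of 12, 0 genes were called in urothelium, with 120 probe sets there and 6 in collecting duct. With 1 probe set a gene and the filter, 1 gene was called in collecting duct (Slc6a13, -2.09, adjusted p = 0.0456), 1 in urothelium against smooth muscle, and 276 genes in all in collecting duct. Averaging the probe sets of each gene gave 1 and 1 for the same comparisons. Trend and robust options gave 1 for urothelium against smooth muscle and 262 probe sets in collecting duct. Leaving out each array gave 5 to 7 genes in proximal tubule, 0 to 1 in collecting duct, 3 to 5 in smooth muscle and 0 to 1 in urothelium. It gave 3 to 6 for proximal tubule against collecting duct and 0 to 1 for urothelium against smooth muscle. Over all probe sets these ranges were 1221 to 2587 in proximal tubule, 0 to 190 in collecting duct, 1485 to 2441 in smooth muscle and 32 to 310 in urothelium. The proximal tubule counts were 1221 without its replicate 2 and 1454 without its replicate 3, and the collecting duct counts were 0 without its replicate 1 and 1 without its replicate 2. Where collecting duct is left with 1 array, that array is assumed to vary like the other groups. The causes were not tested. No paired analysis was possible because replicate numbers follow accession order. Arrays were blocked by label batch only, as given above.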
